A study of Mus musculus with 9 samples.

Results

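The genes described here are 174 mouse genes named Zfp and a number, most of which encode C2H2 zinc finger proteins. They were measured in a fibroblast line in control cells, after 1 h of induced MLKL dimerization, and after a 6 h washout. Members were selected on a measured level: the gene symbol had to be Zfp followed only by digits, and the mean log2 value of the 3 control arrays had to be at least 6. A gene with several probe sets was represented by the one that was brightest on average across the 9 arrays. Zfp36 matched the name but was left out of the list, because it encodes an RNA-binding protein with another kind of finger that degrades AU-rich transcripts. Of 22180 genes measured, 335 carried such a name, 174 were members and 161 lay below the level. The control level chose the members, so it is given as a description only, and the 2 comparisons with control reuse the 3 control arrays that set it. The difference of washout minus B/B is taken without them, but they enter the pooled variance behind its test.

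The cells were hMLKL1-181-2Fv-NIH3T3, a line of mouse NIH3T3 fibroblasts that carries part of human MLKL, the membrane-permeabilizing effector of necroptosis, joined to Fv domains. All 9 samples carry this fusion. B/B is a small dimerizer that brings Fv domains together, and annexin V (AnnV) binds phosphatidylserine exposed at the cell surface. The 3 groups of 3 arrays were control cells, AnnV-positive cells sorted after 1 h of 50 nM B/B, and cells treated and sorted likewise and then kept for 6 h of washout. The series text gives 3000 nM for the washout without naming the compound. Whether the line is 1 clone, and how and when control cells were collected, sorted or not, is not stated, so effects of B/B, of sorting and of harvest time cannot be told apart against control. Replicate numbers follow the order of the samples and pair nothing across groups. Nothing in the labels ties the samples of each group to independent cultures, and p-values therefore measure only the spread between these samples, which may be technical. Fewer cells that contain a transcript and less of it per cell cannot be told apart in such bulk RNA.

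C2H2 zinc finger proteins form the largest family of mammalian transcription factors. Each finger is a short fold held by a zinc ion, and a row of fingers reads a stretch of DNA. Many members also carry a KRAB domain, which recruits Trim28 (KAP1), a scaffold for the methyltransferase Setdb1 and for HP1 proteins, and so silences retroelements and imprinted regions. Their genes often lie in clusters that arose by repeated duplication, and their transcripts tend to be scarce.

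Control means of the members ran from 6.01 to 11.62 on the log2 scale with a median of 7.18, and the median was 7.12 after 1 h of B/B and 7.52 after washout. Just above the limit were Zfp703 (5.97, 5.98 and 6.07 on the control arrays), Zfp449 (6.14, 5.97 and 5.98) and Zfp689 (6.08, 6.06 and 6.00). Just below it were Zfp882 and Zfp994, both with a control mean of 5.98, and Zfp493 with 5.94. Replicates scattered slightly more for members than for the 9044 other genes at the same control level. Their median SD was 0.0631 in control, 0.0894 after 1 h and 0.0625 after washout, against 0.0485, 0.0562 and 0.0491 for the other genes.

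Over the whole data set, array medians ran from 4.6 to 4.68, and the correlation of 2 arrays across genes was 0.998 to 0.999 within groups and 0.99 to 0.998 between them. Of 12 fibroblast markers, 11 were at the control level, with list means of 9.68 to 9.70 on control arrays, 9.73 to 9.75 after 1 h and 9.38 to 9.40 after washout. After washout 2 of the 12 were higher than control and 7 lower (limma, adjusted p under 0.05). These shares were 16.7% and 58.3%, beside 27.6% and 25.6% of other genes at the control level. Among markers of other cell types, none of 5 epithelial, 1 of 5 endothelial and 2 of 7 leukocyte genes reached a mean of 6 in control. Leukocyte list means were 4.85 to 4.88 in control, 4.97 to 5.06 after 1 h and 4.97 to 5.03 after washout. Of the 7 leukocyte genes, 3 were called higher than control at 1 h and none lower, beside 1.01% and 1.88% of all genes tested. Cd14 rose by 0.61 and Cd68 by 0.51 at 1 h, and the other call, of Adgre1, was lost without any 1 array. After washout 1 was called higher, Cd14 by 1.47, and 2 lower, beside 14.5% and 11.7% of all genes tested. The part of these shifts in the results on zinc finger genes was not tested.

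The plainest feature of the members was a shared rise after washout. Measured from its control mean, the median member stood at -0.0058, -0.0083 and 0.0169 on the control arrays, at -0.1006, -0.0664 and -0.0176 after 1 h of B/B, and at 0.264, 0.2721 and 0.2923 after washout. The 3 washout arrays were alike and stood apart from the other 6. Between 77.6% and 81% of members were above their control mean on a washout array, against 23% to 38.5% on a B/B array. For the other genes at the same level the washout medians were -0.0056, 0.0025 and 0.0063, and 48.9% to 51.3% were above their control mean.

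**Figure D1:**
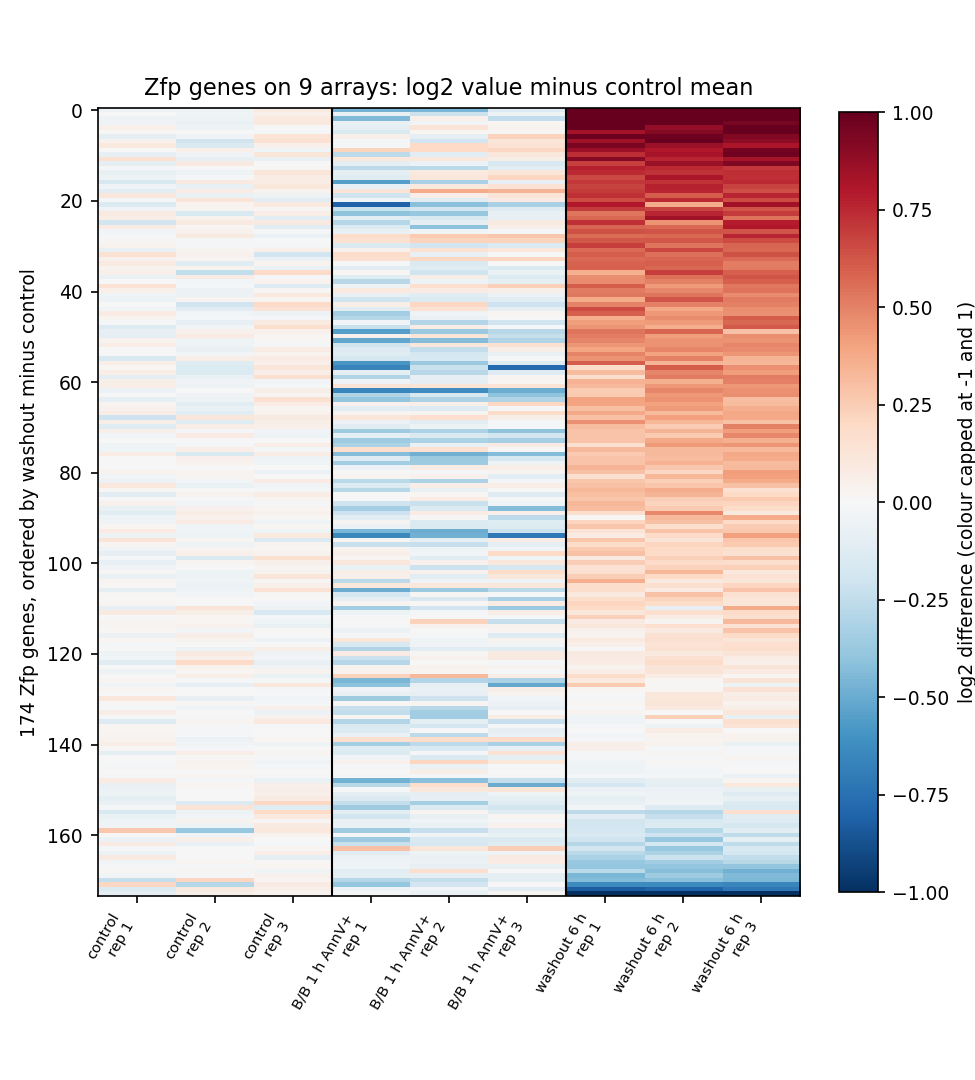
Each row is 1 of the 174 Zfp genes, ordered from the highest to the lowest washout minus control difference, and each column is 1 of 9 arrays; colour gives the log2 value minus the gene's control mean, capped at -1 and 1. The washout columns are red over most rows, and the B/B columns are mostly pale blue.

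The test over the 3 groups (limma F-test, Benjamini-Hochberg adjusted p under 0.05, over all genes) called 126 of 174 members, or 72.4%. It called 29.5% of all genes tested and 58.3% of the other genes at the control level. The second share is over genes that met the same limit on the control level.

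Sequences upstream of the genes with the sharpest changes are given here because 2 of them, Zfp948 and Zfp760, are near neighbours on chromosome 17 that moved in opposite directions after washout, Zfp113 and Zfp799 had the largest rises after Zfp760, and Zfp367 the largest drop after Zfp948. Each is a 300-base window from RefSeq (GRCm38.p6), running 5′ to 3′ on the gene's strand from 250 bases before the annotated start to 50 bases after it. Capitals mark the CCAAT box, written CCAAT or, on the opposite strand, ATTGG. Zfp760 lies at chr17:21707491-21707790 on the plus strand, Zfp948 at chr17:21566728-21567027 on the plus strand, Zfp113 at chr5:138155695-138155994 on the minus strand, Zfp799 at chr17:32830212-32830511 on the minus strand and Zfp367 at chr13:64153150-64153449 on the minus strand.
Zfp760: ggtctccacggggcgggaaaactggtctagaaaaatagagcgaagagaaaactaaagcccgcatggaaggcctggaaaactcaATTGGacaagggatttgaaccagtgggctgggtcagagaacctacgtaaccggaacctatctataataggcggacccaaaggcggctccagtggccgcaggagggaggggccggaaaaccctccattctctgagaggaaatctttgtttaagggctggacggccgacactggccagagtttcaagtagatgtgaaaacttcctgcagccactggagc
Zfp948: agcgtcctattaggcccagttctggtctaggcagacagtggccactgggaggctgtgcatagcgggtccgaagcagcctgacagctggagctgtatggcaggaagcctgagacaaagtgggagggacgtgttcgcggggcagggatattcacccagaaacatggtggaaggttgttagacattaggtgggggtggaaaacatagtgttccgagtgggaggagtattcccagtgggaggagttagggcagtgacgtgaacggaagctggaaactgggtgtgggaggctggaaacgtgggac
Zfp113: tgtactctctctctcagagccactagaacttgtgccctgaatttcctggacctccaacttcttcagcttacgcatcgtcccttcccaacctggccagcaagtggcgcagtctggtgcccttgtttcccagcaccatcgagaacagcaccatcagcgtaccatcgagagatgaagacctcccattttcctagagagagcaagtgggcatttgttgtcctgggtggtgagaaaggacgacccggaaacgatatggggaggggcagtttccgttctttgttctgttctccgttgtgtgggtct
Zfp799: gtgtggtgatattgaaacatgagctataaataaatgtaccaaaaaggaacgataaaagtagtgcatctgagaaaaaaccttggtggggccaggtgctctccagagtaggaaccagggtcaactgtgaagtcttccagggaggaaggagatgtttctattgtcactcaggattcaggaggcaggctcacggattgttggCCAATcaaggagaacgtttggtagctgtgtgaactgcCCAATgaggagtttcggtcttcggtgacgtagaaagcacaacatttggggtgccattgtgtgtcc
Zfp367: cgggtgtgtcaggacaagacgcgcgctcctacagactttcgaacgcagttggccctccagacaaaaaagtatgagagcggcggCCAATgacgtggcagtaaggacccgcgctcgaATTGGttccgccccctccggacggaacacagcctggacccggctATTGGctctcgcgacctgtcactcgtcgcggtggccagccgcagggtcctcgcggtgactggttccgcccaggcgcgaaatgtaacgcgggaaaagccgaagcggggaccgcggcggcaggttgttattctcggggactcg
The window of Zfp760 held 1 CCAAT match and 12 CpG dinucleotides, that of Zfp799 held 2 matches and 6 CpG, and that of Zfp367 held 3 matches and 36 CpG. The windows of Zfp948, with 10 CpG, and Zfp113, with 11, held no match to any of the 6 motifs searched.

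A promoter window was found for 139 of the 174 members, and 6 motifs were searched on both strands: the CRE (TGACGTCA), the AP-1 site (TGANTCA), the ETS site (CCGGAAG), the NRF1 site (GCATGCGC), the E-box (CACGTG) and the CCAAT box (CCAAT). Matches of 2 motifs overlapped in 1 member. The CCAAT box was in 48.9% of member windows, in 39.4% of those of other genes at the control level and in 37.9% of all 27025 windows, 1 per gene. Among members it was in 44.9% of the 78 that rose after washout against control, in 50% of the 12 that fell and in 55.1% of the 49 not called. The ETS site was in 20.1% of member windows, 20.3% of those of other genes and 9.12% of all windows. For the NRF1 site these shares were 6.47%, 6.29% and 2.8%, for the E-box 7.19%, 11.1% and 7.24%, for the AP-1 site 6.47%, 4.36% and 7.93%, and for the CRE 1.44%, 3.72% and 1.88%. Median CpG counts per window were 16 for members, 22 for other genes at the level and 7 for all. These matches are descriptions of letters in a window and are not shown to be sites in use.

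After 1 h of B/B few zinc finger genes differed from control, and those that did were nearly all lower. Of 174 members, 12 were lower and 1 was higher (limma, adjusted p under 0.05). The lower share was 1.88% of all genes tested and 3.99% of other genes at the control level, and the higher share 1.01% and 1.67%, while among members these shares were 6.9% and 0.575%. The members' median difference was -0.0665, with quartiles of -0.17 and 0.00, beside -0.0376 for other genes at the level. The number called was sensitive to single arrays: 7 members were lower without B/B replicate 1 and 20 without B/B replicate 3. It also depended on the scaling. With quantile normalization 6 members were higher and 11 lower, so that 35.3% of calls were upward in place of 7.69%, and with array medians centred none was higher and 13 were lower.

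Zfp606 had the largest drop at 1 h. Its control arrays read 6.18, 6.18 and 6.33, its B/B arrays 5.58, 5.75 and 5.52, and its washout arrays 6.31, 6.42 and 6.64. All B/B arrays lay below all others, while control and washout overlapped. The drop was by 0.61 ± 0.0914 (log2, SE), a 1.53-fold decrease (limma, adjusted p = 0.0077), and washout exceeded B/B by 0.84 (adjusted p = 8.74e-05).

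Zfp84 read 7.75, 7.82 and 7.87 in control, 7.16, 7.19 and 7.31 after 1 h, and 8.07, 8.30 and 8.27 after washout. The 3 groups did not overlap, with B/B lowest and washout highest. It fell by 0.59 ± 0.0702 at 1 h (limma, adjusted p = 0.00206) and after washout was 0.40 above control (adjusted p = 0.00193). Zfp930 read 7.0, 6.92 and 6.98 in control, 6.45, 6.54 and 6.67 after 1 h, and 7.45, 7.42 and 7.41 after washout. The order was again B/B, control, washout without overlap, with a decrease by 0.42 ± 0.0583 at 1 h (adjusted p = 0.00542) and a washout value 0.46 above control (adjusted p = 0.000263). Zfp334, Zfp664 and Zfp719 followed the same order, with 1 h differences of -0.45, -0.35 and -0.34 and washout minus control differences of 0.32, 0.35 and 0.39, all past the threshold. The 1 h call of Zfp719 was lost without control replicate 2 or 3, any 1 B/B replicate or washout replicate 1 or 2, with adjusted p up to 0.111. Zfp35, named after its values were seen, read 7.78 on each control array, 7.43 to 7.46 after 1 h and 8.07 to 8.17 after washout. Its control values were identical at finer rounding too, and such ties between arrays also occurred in other members. The source of these ties was not tested.

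The other members called lower at 1 h were not called after washout against control. Zfp326, which encodes a subunit of a complex that couples splicing to elongation by RNA polymerase II, read 7.57, 7.48 and 7.43 in control, 7.02, 7.08 and 7.26 after 1 h, and 7.38, 7.42 and 7.52 after washout. It fell by 0.37 ± 0.0707 (limma, adjusted p = 0.0245), and its washout arrays overlapped control (difference -0.05, adjusted p = 0.675). Zfp408, whose human counterpart is linked to disease of the retinal vessels, fell by 0.36 ± 0.0543 at 1 h (adjusted p = 0.00853), and its washout minus control difference was 0.08 (adjusted p = 0.34). Zfp668, linked to DNA repair, had a 1 h difference of -0.39 (adjusted p = 0.0344), and its washout arrays all lay above control, by 0.23 on average (adjusted p = 0.0601). Zfp276 had a 1 h difference of -0.38 (adjusted p = 0.0459) and a washout difference of 0.18 (adjusted p = 0.165), with washout and control arrays overlapping. Zfp28, named after its values were seen, fell by 0.31 at 1 h (adjusted p = 0.015) and was 0.01 from control after washout. These 1 h calls were not all kept without single arrays. Those of Zfp326, Zfp668 and Zfp276 were lost without any 1 control replicate or without B/B replicate 1 or 2, with adjusted p up to 0.0854, 0.11 and 0.138. Those of Zfp668 and Zfp276 were also lost without washout replicate 2 or 3, and for Zfp276 without washout replicate 1. That of Zfp28 was lost without control replicate 1 or B/B replicate 1 (up to 0.0555), and that of Zfp408 was kept.

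Zfp341 was the only member called higher at 1 h. Its human counterpart drives transcription of STAT3. The control arrays read 7.14, 7.11 and 7.12, the B/B arrays 7.28, 7.35 and 7.35, and the washout arrays 7.74, 7.75 and 7.78. Each group lay wholly above the one before. The increase was 0.20 ± 0.0398 at 1 h (limma, adjusted p = 0.0313) and 0.63 ± 0.0398 after washout (adjusted p = 3.68e-06), with washout 0.43 above B/B (adjusted p = 3.21e-05). The 1 h call was lost when any control array, B/B replicate 2 or 3, or washout replicate 1 or 2 was left out. Both washout calls were kept whichever array was left out. With a dimmer second probe set averaged in, the differences from control were 0.11 at 1 h (adjusted p = 0.198) and 0.33 after washout.

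**Figure D2:**
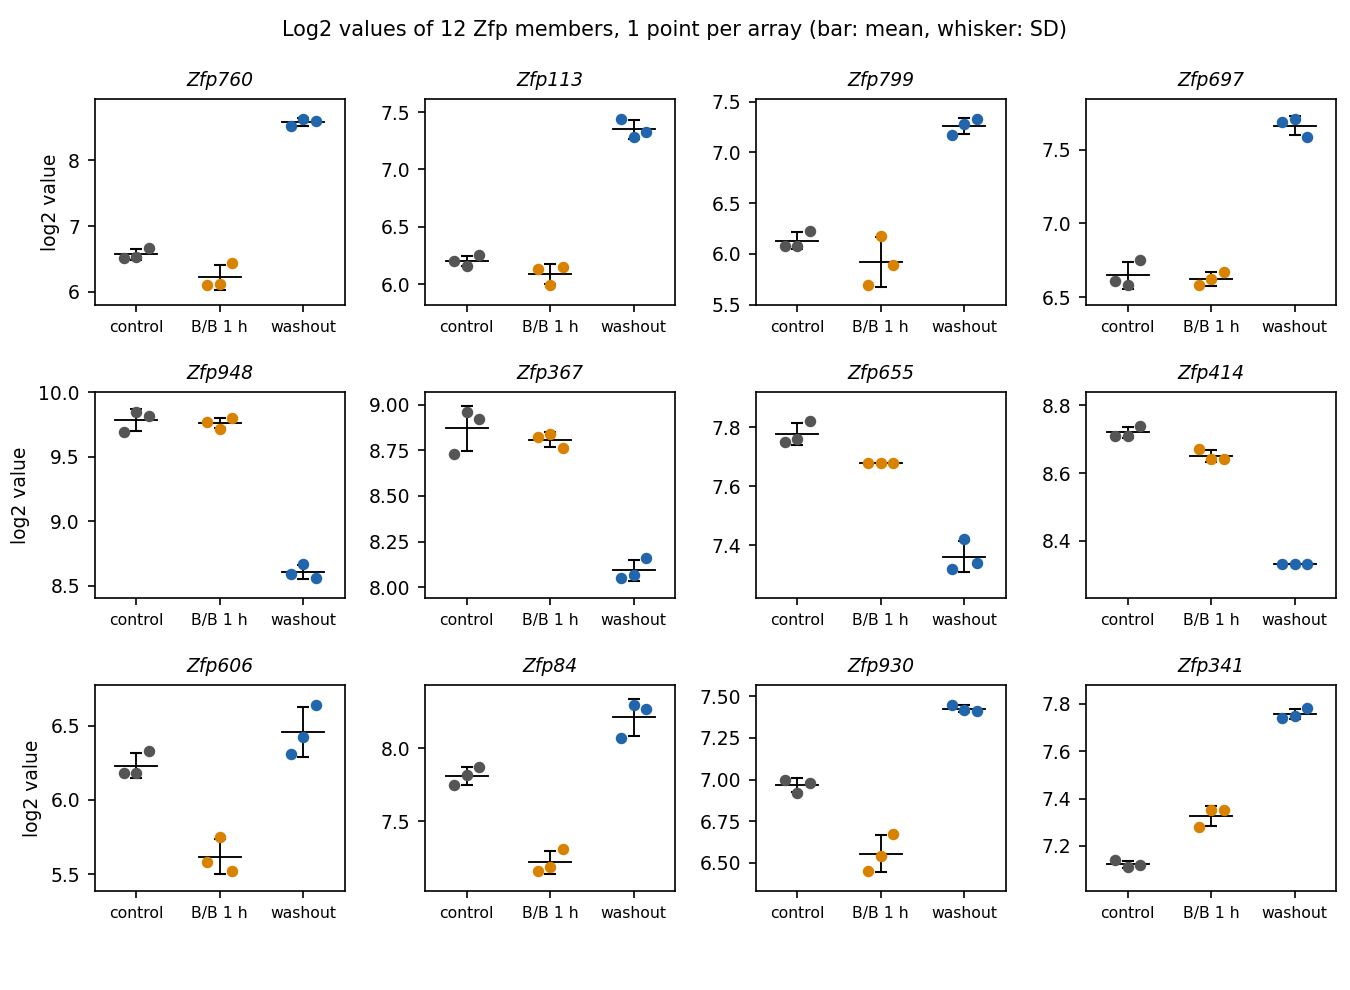
Points are the log2 values of 12 Zfp genes on each of the 3 control, 3 B/B 1 h and 3 washout arrays, bars are group means and whiskers are SDs; each panel has its own log2 axis, which does not start at 0. Zfp760 stands at 8.52 to 8.63 after washout, above all other arrays, and Zfp948 at 8.56 to 8.67, below them.

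After washout, more than 6 members in 10 differed from control and most of those were higher. Of 174 members, 99 rose and 15 fell against control (limma, adjusted p under 0.05). The background was 14.5% higher and 11.7% lower over all genes tested, and 27.6% higher and 25.6% lower over other genes at the control level, while the members' shares were 56.9% and 8.62%. The median member differed by 0.26, a 1.2-fold change, and the middle of the list ran from 0.06 to 0.50, beside a median of 0.00 for other genes at the level. Most differences were small: 5 members were at least 2-fold higher and 1 at least 2-fold lower, over a range of -1.18 to 2.01. The same fold was reached upward by 91 and downward by 89 of the 9044 other genes at the level, and by 132 and 94 of all 22180 genes. A positive difference was found in 142 members, called or not.

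**Figure D3:**
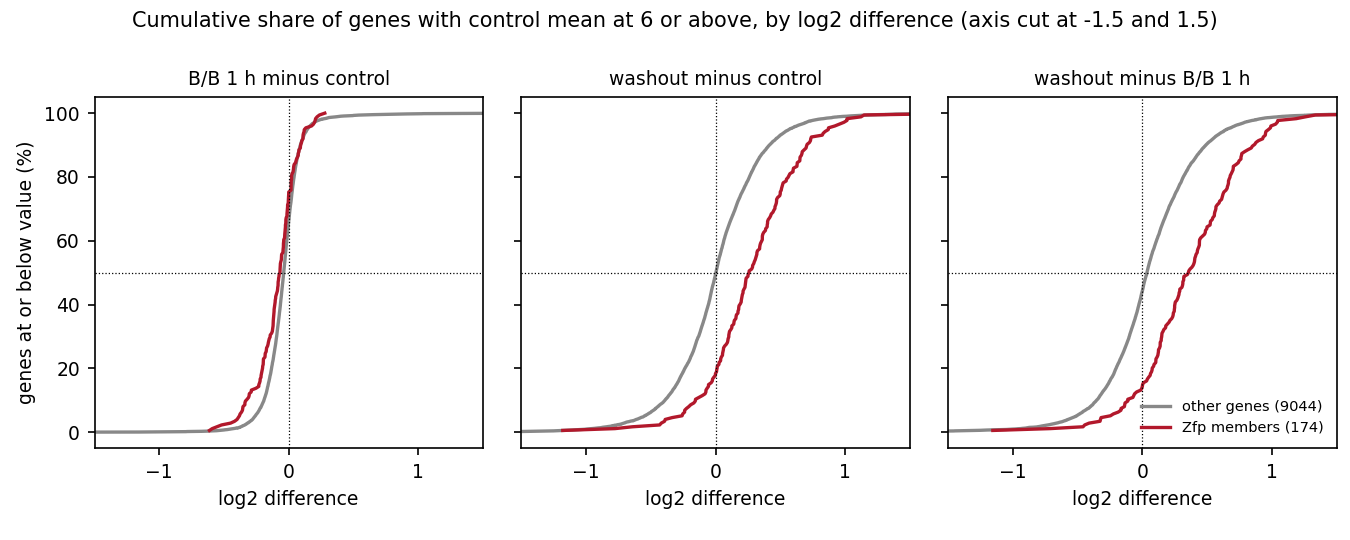
Lines give the cumulative percentage of genes at or below a log2 difference (x axis, cut at both ends) for the 174 Zfp members (red) and the 9044 other genes at the control level (grey) in each of 3 comparisons. The red line lies to the right of the grey one in both washout panels, with medians of 0.26 and 0.36 against 0.00 and 0.03, and slightly to its left at 1 h.

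Zfp760 rose furthest. It read 6.52, 6.53 and 6.66 in control, 6.10, 6.12 and 6.44 after 1 h, and 8.52, 8.63 and 8.60 after washout. The washout arrays lay far above the rest, and the B/B arrays lay below control without overlap, though that difference was not past the threshold (-0.35 ± 0.0879, limma, adjusted p = 0.0686). Washout exceeded control by 2.01 ± 0.0879, a 4.04-fold increase (adjusted p = 4.41e-07), and exceeded B/B 5.16-fold (adjusted p = 1.2e-07).

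Zfp113 read 6.20, 6.16 and 6.25 in control, 6.13, 5.99 and 6.15 after 1 h, and 7.44, 7.28 and 7.33 after washout. Its washout arrays were all more than 1 log2 unit above the highest control array. The increase over control was 1.15 ± 0.0598, or 2.22-fold (limma, adjusted p = 1.27e-06). Zfp799 read 6.08, 6.08 and 6.23 in control, 5.69, 6.18 and 5.89 after 1 h, and 7.17, 7.28 and 7.33 after washout. Control and B/B overlapped and washout stood above both, by 1.12 ± 0.108 over control (adjusted p = 4.66e-05). A dimmer second probe set of Zfp799, at 3.76 in control, differed by 0.01, and the mean of both gave a rise of 0.57.

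Zfp697 read 6.61, 6.58 and 6.75 in control, 6.58, 6.62 and 6.67 after 1 h, and 7.69, 7.71 and 7.59 after washout. Zfp945 read 7.64, 7.53 and 7.59, then 7.49, 7.71 and 7.62, then 8.68, 8.46 and 8.65. In both genes control and B/B overlapped and the washout arrays were higher, with an increase of 1.02 in each (limma, adjusted p = 1.9e-06 and 8.57e-06). Zfp688, Zfp599 and Zfp825 rose by 0.99, 0.96 and 0.92. Zfp618, whose product binds the hydroxymethylcytosine reader Uhrf2, and Zfp984 both rose by 0.87. None of these 5 was called at 1 h.

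Zfp948 had the largest fall. It read 9.69, 9.85 and 9.82 in control, 9.77, 9.72 and 9.80 after 1 h, and 8.59, 8.67 and 8.56 after washout. Control and B/B overlapped, and every washout array was over 1 log2 unit below them. The decrease from control was by 1.18 ± 0.0548, or 2.27-fold (limma, adjusted p = 6.16e-07).

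Zfp367 read 8.73, 8.96 and 8.92 in control, 8.82, 8.84 and 8.76 after 1 h, and 8.05, 8.07 and 8.16 after washout. Only the washout arrays were low, with a decrease by 0.78 ± 0.0642 (limma, adjusted p = 1.87e-05). Zfp414 was steady within groups at 8.71, 8.71 and 8.74 in control, 8.67, 8.64 and 8.64 after 1 h and 8.33 on each washout array, a decrease by 0.39 ± 0.0367 (adjusted p = 4.12e-05). Zfp655, which encodes a partner of the signalling protein Vav1, read 7.75, 7.76 and 7.82 in control, 7.68 on each B/B array and 7.32, 7.42 and 7.34 after washout. It fell by 0.42 ± 0.0433 (adjusted p = 7.28e-05).

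Smaller falls after washout against control were found for Zfp651 (by 0.43), Zfp580 (by 0.39), Zfp692 (by 0.34), Zfp654 (by 0.26) and Zfp579 (by 0.25). Zfp526 fell by 0.64 ± 0.125 (limma, adjusted p = 0.00361), but its values were uneven in control at 6.71, 6.22 and 6.58, and its other probe set, at 6.1 in control, differed by -0.03. Its washout minus B/B call (difference -0.45) was lost without B/B replicate 2 or 3 or any washout replicate.

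Compared with AnnV-positive cells sorted at 1 h, which were other samples, washout cells had 114 members higher and 12 lower (limma, adjusted p under 0.05). The median difference was 0.36. Time after the sort and the washout treatment both differ between these groups and cannot be told apart. The background was 16.6% higher and 12% lower over all genes tested and 32.9% higher and 23% lower over other genes at the control level, while the members' shares were 65.5% and 6.9%. The difference itself holds no control array, but the control arrays enter the pooled variance of the fit and the washout arrays are shared with the comparison before, so it is not a second experiment. Here 7 members were at least 2-fold higher and 1 at least 2-fold lower, beside 118 and 90 of the 9044 other genes at the level. Besides Zfp760, Zfp799, Zfp113, Zfp697 and Zfp688, the 7 included Zfp58 and Zfp157.

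Zfp58 read 5.94, 6.11 and 6.17 in control, 5.27, 5.66 and 5.75 after 1 h, and 6.88, 6.45 and 6.92 after washout. The groups did not overlap, but the spread at 1 h was wide and the difference from control was not past the threshold (-0.52 ± 0.149, limma, adjusted p = 0.103). Washout exceeded B/B by 1.19 ± 0.149, or 2.28-fold (adjusted p = 0.000213). Zfp157 read 6.56, 6.81 and 6.80, then 6.17, 6.40 and 6.64, then 7.43, 7.45 and 7.47. Its washout arrays were above all others, by 1.05 ± 0.109 over B/B (adjusted p = 6.74e-05). For Zfp866 the washout minus B/B difference was 0.97 ± 0.148 (adjusted p = 0.00074), and neither of its comparisons with control was past the threshold.

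Zfp395, which encodes a protein first found binding the Huntington disease gene, ran the other way. It read 7.08, 7.10 and 7.13 in control, 7.40, 7.23 and 7.35 after 1 h, and 6.92, 6.72 and 6.95 after washout. B/B was highest and washout lowest with no overlap, and the drop from B/B to washout was by 0.46 ± 0.0675 (limma, adjusted p = 0.000595). The 1 h difference of 0.22 was not past the threshold (adjusted p = 0.123), and the washout call against control (-0.24, adjusted p = 0.0259) was lost without any 1 control replicate or without washout replicate 2.

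The 5 members with the highest control signal were Zfp706, Zfp207, Zfp106, Zfp948 and Zfp266, an order of probe set signals that does not rank transcripts, since probes differ in affinity. Zfp706 read 11.58, 11.65 and 11.64 in control, 11.66, 11.57 and 11.58 after 1 h, and 11.89, 11.82 and 11.80 after washout. Only washout was high, by 0.21 ± 0.0456 (limma, adjusted p = 0.00607), and the sign turned to -0.13 when its dim second probe set was averaged in. Zfp207, whose product binds Bub3 at the spindle, read 10.84 to 10.89 in control, 10.84 on each B/B array and 10.79 to 10.85 after washout, with no call. Its washout minus control interval ran from -0.12 to 0.05 (95% confidence, limma). Zfp106, an RNA-binding protein needed by motor neurons, differed from control by -0.09 at 1 h and by 0.00 after washout, with no call. Zfp266 was 9.74, 9.63 and 9.70 in control, 9.79, 9.77 and 9.75 after 1 h and 10.21, 10.17 and 10.23 after washout, an increase of 0.51 ± 0.043 (adjusted p = 1.99e-05).

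Members were also counted by control level. Of those with a control mean from 6 to 7, 44 rose and 2 fell among 69 after washout against control, with a median of 0.36. From 7 to 8 it was 40 and 5 of 66, with a median of 0.29, and at 8 or above 15 and 8 of 39, with a median of 0.10. Other genes in these ranges had medians of 0.04, 0.04 and -0.02, with 480 higher and 250 lower of 1656, 652 and 433 of 2069, and 1367 and 1631 of 5319. The difference between the level ranges was not tested. Zfp genes below the level, which the rule left out, had 65 higher, none lower and a median of 0.18 over 161 genes after washout against control, and none higher and 6 lower at 1 h. The washout share higher was 40.4%, beside 14.5% of all genes tested, of which 11.7% were lower. All genes tested include those at the level, and 27.6% of other genes at the level were higher and 25.6% lower. Shares over other genes below the level were not counted, so these 161 genes have no background of like level here. At 1 h 3.73% were lower, beside 1.88% of all genes tested, of which 1.01% were higher.

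Among members with known roles, the 4 repressors of retroelements and imprinted regions rose after washout against control. Of all members 56.9% rose, and of other genes at the control level 27.6%. Zfp809, which silences retroviruses through their primer binding site, read 7.46, 7.54 and 7.54 in control, 7.32, 7.38 and 7.40 after 1 h, and 7.89, 8.15 and 8.03 after washout. Its washout arrays lay above all others, and the increase over control was 0.51 ± 0.0656 (limma, adjusted p = 0.000295). Zfp568, which represses a placental promoter of Igf2, read 7.55, 7.62 and 7.56, then 7.51, 7.55 and 7.56, then 8.22, 8.21 and 8.20, an increase of 0.63 ± 0.0396 (adjusted p = 3.46e-06). Zfp445 and Zfp57 both protect imprinted methylation, and they rose by 0.23 (adjusted p = 0.00351) and 0.18 (adjusted p = 0.00997). Zfp57 was the 1 of the 4 for which washout minus B/B was not called (0.07, adjusted p = 0.272).

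Of 11 members with roles in ribosome quality control, RNA, ubiquitin, SUMO or the spindle, 4 rose and none fell after washout against control, with a median of 0.12. The share higher was 36.4%, near the 27.6% of other genes at the control level, of which 25.6% were lower. At 1 h 1 fell, Zfp326, or 9.09%, beside 3.99% of other genes at the control level. The 4 were Zfp706, Zfp330, Zfp598, which senses collided ribosomes, and Zfp346, which binds double-stranded RNA. The calls of Zfp598 (0.14) and Zfp346 (0.16) were lost without any 1 control replicate or washout replicate 1, among others. Zfp330, a nucleolar protein, rose by 0.29 (limma, adjusted p = 0.0216), a call lost without any 1 control replicate or without washout replicate 1 or 2, and its other 2 probe sets differed by -0.07 and 0.15. Zfp451, a SUMO ligase, differed from control by 0.18 (adjusted p = 0.073) and from B/B by 0.24 (adjusted p = 0.0195), the latter lost without B/B replicate 1 or washout replicate 2.

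Of 10 regulators of differentiation and signalling, 3 rose and 2 fell after washout against control, with a median of 0.06. These shares, 30% and 20%, were near the 27.6% and 25.6% of other genes at the control level. Zfp462, a nuclear factor tied to chromatin and pluripotency, read 9.11, 9.09 and 9.0 in control, 9.22, 9.27 and 9.28 after 1 h, and 9.64, 9.65 and 9.63 after washout. Each group lay above the one before, and the increase after washout was 0.58 ± 0.0436 (limma, adjusted p = 1.11e-05), while that at 1 h was 0.19 (adjusted p = 0.0513). Zfp703, a corepressor amplified in some breast cancers, rose by 0.34 (adjusted p = 0.038), a call lost without any 1 control replicate, B/B replicate 2 or washout replicate 2 or 3. The 2 that fell were Zfp367 and Zfp521, a regulator of adipocyte and blood cell fate, by 0.24. The third that rose was Zfp281, by 0.17, a call lost without control replicate 3 or washout replicate 1. Zfp365, tied to genome stability, was called only against B/B (0.29, adjusted p = 0.00916).

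Of 9 general promoter and chromatin factors, 2 rose and 3 fell after washout against control, with a median of 0.06. These shares, 22.2% and 33.3%, were also near that background of 27.6% higher and 25.6% lower. Zfp410, known for activating Chd4, read 8.05, 8.04 and 8.04 in control, 7.99, 8.12 and 8.11 after 1 h, and 8.38, 8.31 and 8.37 after washout, an increase of 0.31 (limma, adjusted p = 0.000793). Chd4 itself differed from control by 0.01 after washout (adjusted p = 0.95). Zfp263 rose by 0.30 (adjusted p = 0.02), a call lost without control replicate 1 or 2 or washout replicate 3. Zfp131 fell by 0.21 (adjusted p = 0.00636); its drop from B/B was lost without B/B replicate 1 or 2 or washout replicate 2 or 3. Zfp384, a factor of bone and matrix genes, fell by 0.17 (adjusted p = 0.0406), lost without control replicate 1 or 3, B/B replicate 2 or any 1 washout replicate. Zfp687 was the third that fell, by 0.16, a call lost without control replicate 2 or 3 or washout replicate 1 or 2.

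Related families were read from the same fit, with the same background of 27.6% higher and 25.6% lower after washout. Of 26 Zbtb genes at the control level, which pair zinc fingers with a BTB domain, 14 rose and 2 fell after washout against control, with a median of 0.20. At 1 h 1 rose and 4 fell, or 3.85% and 15.4%, beside 1.67% and 3.99% of other genes at the control level. After washout Zbtb14 rose by 0.83 and Zbtb2 fell by 1.09. Of 9 Zkscan and Zscan genes, which carry a SCAN domain, 8 rose and none fell, with a median of 0.48. Of 12 Zfp genes with a letter after the number, 8 rose and 2 fell, with a median of 0.40. Whether these families differ from the members was not tested.

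A list of KRAB corepressor genes went both ways, as did other genes at the control level. This list also held genes of DNA methylation and of chromatin more widely, such as Uhrf1, Dnmt1 and Ehmt2. Of 31 genes listed, 27 were measured: after washout 11 rose and 9 fell against control, with a median of -0.01, and at 1 h none was called (limma, adjusted p under 0.05; at an unadjusted p under 0.05, 2 were higher and 1 lower). The washout shares were 40.7% and 33.3%, beside 27.6% and 25.6% of other genes at the control level. Unlike that background, the list was not limited by control level, and Dnmt3b, at 5.36 in control, was among the 11 that rose. At 1 h only 1.67% of those other genes were called higher and 3.99% lower. Trim28 differed by -0.04 after washout (adjusted p = 0.52) and Setdb1 by -0.01 (adjusted p = 0.91). Among those that fell were Uhrf1 (by 0.81) and Dnmt1 (by 0.39), which copy DNA methylation after replication, the HP1 genes Cbx3 (by 0.42) and Cbx5 (by 0.36), and the histone methyltransferase Ehmt2 (by 0.47). Smarcad1, a remodeller, rose by 0.54, Ehmt1 by 0.39 and Tasor, a subunit of the HUSH silencing complex, by 0.31.

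**Figure D4:**
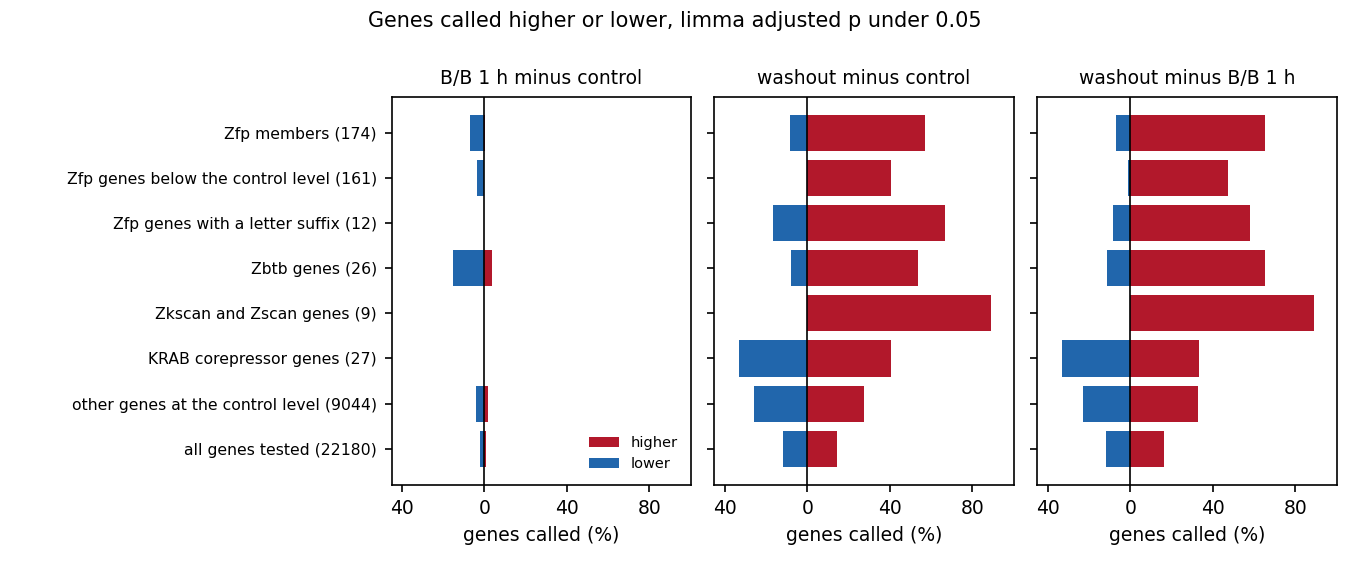
Bars give the percentage of genes called higher (red, to the right of 0) and lower (blue, to the left) at an adjusted p under 0.05 by limma, for the members, related families, corepressor genes and both backgrounds, in 3 comparisons; numbers in brackets are genes. After washout the red bar of the members reaches 56.9% against control and 65.5% against B/B, and both bars of the corepressor genes are of similar length.

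In some runs of neighbouring Zfp genes all members rose and in others few did, and the cluster of Zfp948 and Zfp760 held changes in both directions. A gene table gave the order of protein-coding genes along chromosomes, with all other genes left out. In that order 81 members lay next to another Zfp gene while 93 did not. Of the 81, 49 rose and 3 fell after washout against control, with a median of 0.37. Of the 93, 50 rose and 12 fell, with a median of 0.21, and the difference between both sets was not tested. The background was again 14.5% higher and 11.7% lower over all genes tested, and 27.6% and 25.6% over other genes at the control level. Whether probes of 1 zinc finger gene also bind transcripts of its duplicates was not tested either.

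A run of 7 Zfp genes held 6 members, Zfp398, Zfp282, Zfp212, Zfp956, Zfp777 and Zfp746, and all 6 rose, by 0.30 to 0.70. Zfp746, known as PARIS, represses the gene of the mitochondrial regulator PGC-1 alpha. It read 7.11, 7.21 and 7.06 in control, 7.31, 7.39 and 7.39 after 1 h, and 7.69, 7.70 and 7.89 after washout. The washout arrays were highest, 0.63 above control (limma, adjusted p = 7.19e-05). The 3 members of another run, Zfp329, Zfp110 and Zfp128, rose by 0.60 to 0.67, and Zfp560, Zfp266 and Zfp846 by 0.51 to 0.74. In a run of 15 Zfp genes, 8 were members, of which 5 rose and none fell, over a range of -0.22 to 0.63, and these 5 included Zfp84 and Zfp568. In the runs of Zfp524, Zfp865 and Zfp580 and of Zfp768, Zfp747 and Zfp764 the medians were 0.06 and 0.07, with 1 fall in the first and 1 rise in the second. Of the 4 members Zfp868, Zfp869, Zfp963 and Zfp866, 1 rose and none fell, with a median of 0.26. Of the 3 members Zfp397, Zfp35 and Zfp24, 2 rose and none fell, with a median of 0.34. Beside these runs, 56.9% of all members rose.

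The cluster with both Zfp948 and Zfp760 was mixed. It was picked for these genes, which had the largest fall and the largest rise among the members. Only 2 protein-coding genes lay between them, and neither was a member. Zfp983, at 5.26 in control, differed by 0.17 after washout (limma, adjusted p = 0.138), and Gm10509, at 3.27, by 0.63 (adjusted p = 0.169). Zfp229, next after Zfp760 and at 5.38 in control, rose by 0.89 (adjusted p = 0.00121). Zfp53, the nearest member on the other side of Zfp948, was at 6.55 and differed by 0.04 (adjusted p = 0.864). In this order along the chromosome, a fall by 1.18 and a rise of 2.01 thus had 2 protein-coding genes between them.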

How the data were processed

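The 9 RNA samples, 3 per group, were each hybridized to a one-colour Affymetrix array. The deposited values are log2 probe set summaries with near-equal array medians, and the main fit used them with no further scaling. Near-equal medians do not show that whole distributions match, and counts at 1 h changed with the scaling. Base 2 was inferred from the values, which limits every fold given. The software was Partek 6.6, per the submitters' processing notes. The summary and normalization methods are not given in the sources used here. A single gene symbol was attached to 23521 of 41345 probe sets, which gave 22180 genes, while 1814 had several symbols and 16010 had none. Of the members, 13 had several probe sets. In only 7 of these did all probe sets have the same sign for washout minus control, though in none were probe sets called in opposite directions. All 174 were found under the same symbol in a RefSeq gene table, used only for gene order.

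The 3 groups were fitted together in limma 3.58.1 (R 4.3.3; lmFit and eBayes, 6 residual and 3.38 prior degrees of freedom), with no covariate. Differences are log2 with SE, the median SE being 0.0636, and intervals are at 95%. P-values were Benjamini-Hochberg adjusted over all genes within each comparison, and a gene was called at an adjusted p under 0.05. Depth has no equivalent on arrays, and 3 per group limits the precision. The script was tested on simulated data.

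Members and lists were chosen with earlier results of these data known. Genes named by rule are the 10 highest and 10 lowest called members per comparison whose groups of arrays do not overlap, the 5 with the highest control mean, 3 on either side of the level limit, and up to 4 per role list. Outside this rule, Zfp28, Zfp35 and Zfp746 were also named. So were the other role list members called after washout against control (Zfp281, Zfp346, Zfp521, Zfp598 and Zfp687) and the genes of neighbour runs. Alternatives covered scaling (quantile normalization, centred medians), variance models, fitting only the 2 groups compared, averaging probe sets, leaving out low genes, a threshold of 0.01, other member rules and leaving out each array. Promoter windows came from RefSeq (GRCm38.p6), the first listed for each of 27 members with several. Protein features were not analysed here.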

Additional observations from a re-analysis of the deposited data

How the results depend on the processing

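Over 18 alternatives, 36 of 43 named members called after washout against control, 40 of 48 called against B/B and 6 of 11 called at 1 h kept their call and direction throughout. Of 60 results not called, 31 of 1080 values became called. The 1 value that turned its sign was that of Zfp706, at -0.13 for washout minus control with probe sets averaged.

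Counts at 1 h were the least stable. The number of members higher was 1, and became 6 with quantile normalization, 3 with a mean-variance trend or with array weights, 4 without the lowest 30% of genes, and 0 with centred medians, only the 2 groups fitted, averaged probe sets or a threshold of 0.01. It was 0 to 2 with single arrays left out. The number lower was 12, and became 7 at 0.01, 5 of the 93 members with no Zfp neighbour, and 7 to 20 with single arrays left out. The median of -0.0665 became -0.0268 with quantile normalization.

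For washout minus control, 55 of the 105 members with a control mean of at least 7 and 50 of the 93 with no Zfp neighbour were higher, and fewer members were counted by construction. The median of 0.2595 became 0.2829 with centred medians, 0.2355 with averaged probe sets, 0.205 at a level of 7, 0.3 where the other 6 arrays chose 181 members, 0.2126 with no Zfp neighbour, and 0.2595 to 0.2805 with single arrays left out. Those 6 arrays include the washout arrays, so a gene can enter through a high washout value. The median of 0.3 is therefore raised by construction and is no independent check.

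For washout minus B/B, 62 and 56 members were higher in the same sets of 105 and 93, and 7 were lower at 0.01. The median of 0.3566 became 0.3031 with quantile normalization, 0.3957 centred, 0.3155 averaged, 0.2836 at a level of 7, 0.3979 by the other 6 arrays and 0.282 with no Zfp neighbour. The value by the other 6 arrays again includes members admitted by high washout values. The F-test called 75 and 68 in those sets. The sets without Zfp neighbours were chosen after seeing the data. Members limited by finger counts of their proteins were not run. No paired analysis was possible because the replicate numbers used here were given in sample order and the labels hold none. Where no cause is named, the cause was not tested. Signal near background limits members close to a level of 6.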
